A study of Mus musculus with 28 samples.

Results

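Regions of chromatin that opened or closed while fibroblasts were driven by MyoD alone were taken as those called in both libraries of doxycycline-treated cells at day 4 and in neither library of day 0 cells, or the reverse. The first kind is called gained and the second lost. There were 46794 such regions, 32458 gained and 14336 lost, out of 253225 merged regions of all 28 libraries of the series. The gained regions were 25.4% and the lost regions 11.2% of the 127990 regions called in at least 1 of the 4 libraries.

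The cells were MEF14 mouse embryonic fibroblasts from E13.5 embryos, carrying Rosa-rtTA, Col1a1-tetO-MyoD and the Pax7-nGFP reporter. Both groups carry these alleles. Doxycycline lets the rtTA protein switch on the tetO-MyoD transgene, so MyoD level is set by the drug and not by the gene's own promoter. The Dox+ day 4 group (2 libraries) had doxycycline without the small molecules, read here as the myotube medium of the labels' protocols, which holds 2 μg/ml doxycycline, 10 ng/ml basic FGF, 10% serum replacement and 10% serum. The day 0 group (2 libraries) is the uninduced fibroblast, described as grown with 10% serum and neither basic FGF nor serum replacement. MyoD, medium, growth factor and days in culture therefore cannot be told apart in this comparison. The other groups used here are MEF14 cells with Dox+ alone at day 8, with doxycycline plus the small molecules (Dox+FRG, read as forskolin, RepSox and the GSK3β inhibitor CHIR99021) at days 2, 4, 6 and 8, Dox+FRG cells with the label GFP (days 8 and 10), and cells given FRG alone until day 8. Day 6 MEF10 cells of the labels MyoD+FRG and MN+FRG, whose alleles and whose abbreviation MN the labels do not define, and activated and quiescent satellite cells of adult Pax7-nGFP mice complete the 14 groups of 2 libraries. In every group with FRG the small molecules are given as 5 μM forskolin, 5 μM RepSox and 3 μM CHIR99021. Dox+FRG cells also had 2 μg/ml doxycycline, 10 ng/ml basic FGF, 10% serum replacement and 10% serum. For FRG alone 10% serum is listed, and neither basic FGF nor serum replacement. Accessibility was measured by ATAC-seq, in which a transposase cuts open chromatin, from 60000 cells per reaction. Whether both libraries of a group stem from different cultures or embryos is not stated, so the spread between them may be technical.

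MyoD is a basic helix-loop-helix transcription factor that binds E-box sequences, can bind sites in closed chromatin and recruits chromatin remodellers and histone acetyltransferases there. Forced in fibroblasts, it starts the muscle differentiation programme and the cells become myotube-like. Satellite cells are the stem cells of skeletal muscle: quiescent ones lie dormant and express Pax7, and activated ones enter the cell cycle and express MyoD. Forskolin raises cyclic AMP, RepSox inhibits the TGF-beta receptor kinase, and CHIR99021 inhibits GSK3 and so turns on Wnt signalling. The lists hold positions and no expression, and no gene annotation or sequence of their build (mm9) was used here. MyoD itself and muscle or fibroblast marker genes were therefore not checked, and regions are given by position.

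The Dox+ day 4 lists were longer and their peaks narrower than the day 0 lists. They held 89871 and 97854 peaks in Dox+ day 4 libraries, against 70756 and 67502 peaks in day 0 libraries. Most peaks of a list had 1 common width, which was 78 and 79 bp in Dox+ day 4 libraries and 153 and 167 bp in day 0 libraries. Covered length was 19.7 and 21.4 Mb in Dox+ day 4 libraries, against 16.7 and 16.0 Mb in day 0 libraries. Read depth is unknown from such lists. Over the whole series lists held 37301 to 134997 peaks, with the longest in the FRG day 8 libraries. MEF10 MyoD+FRG replicate 2 stood apart with a commonest width of 500 bp and peaks of up to 202465 bp.

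Libraries of a group resembled each other far more than they resembled the other group. The Jaccard index, which is the number of shared regions over the number called in either library, was 0.743 between the Dox+ day 4 libraries and 0.744 between the day 0 libraries. The index lay between 0.385 and 0.394 in the 4 pairs across the groups, so the within-group and across-group values did not overlap. With 2 libraries against 2 an exact test cannot give a p below 0.333, and none was run on the counts.

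Open fibroblast regions that stayed open formed the largest class. A total of 37554 regions were called in all 4 libraries, 6053 in both Dox+ day 4 libraries and 1 day 0 library, and 5179 in 1 Dox+ day 4 library and both day 0 libraries. Near the edge of the rule lay 18852 regions called in a single Dox+ day 4 library and no day 0 library. On the other side lay 11235 regions called in no Dox+ day 4 library and a single day 0 library. A region that is called can be open in a few cells or weakly open in most, and fewer cells of a kind and less signal per cell cannot be told apart in these bulk samples.

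**Figure D1:**
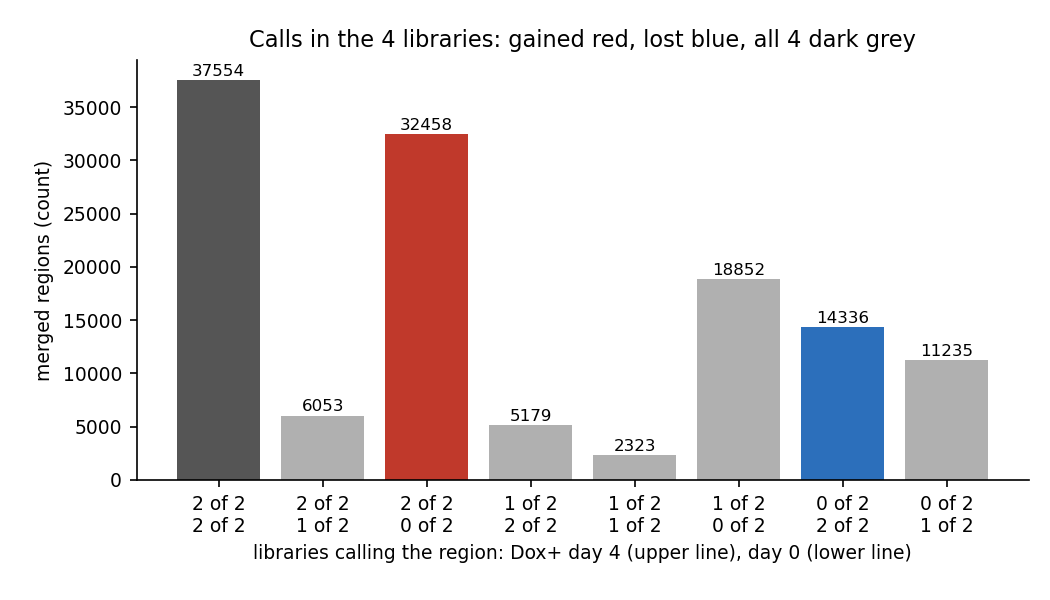
Number of merged regions (vertical axis, count) by how many of the 2 Dox+ day 4 libraries (upper line of the labels) and of the 2 day 0 libraries (lower line) called them. The 32458 gained regions outnumber the 14336 lost ones, and the 37554 regions called in all 4 libraries form the highest bar.

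The excess of gained over lost regions stands beside lists of unequal length, and the part of list length in it was not tested. With extended peaks alone, those wider than the commonest width of their list, gained regions numbered 11168 and lost regions 1303. The lists held 21098 and 22195 such peaks at Dox+ day 4 and 8304 and 6528 at day 0. Peaks that were not extended were set aside here, so these regions may hold such a peak in the other group. When 67502 peaks were drawn at random from each list, gained regions numbered 17129 and lost regions 17632. When the 6528 widest peaks of each list were compared, gained regions numbered 2272 and lost regions 2226. Lists of equal size bring both counts close together by construction, so these draws say nothing on the direction of the excess.

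The gained regions were largely called again at Dox+ day 8. The Dox+ day 8 libraries, which played no part in the choice of regions, called 83.8% and 91.8% of the gained regions. Both libraries called 26478 of them, 1 library called 4038, and 1942 were called in neither. The same libraries called 97.9% and 99.4% of the regions shared by all 4 libraries, and 6.45% and 10.9% of the regions that lay outside the 4 lists and were known from another group. The share of gained regions lay below that of the shared regions and far above that of the outside regions in both libraries. The Dox+ day 8 lists were longer than the 4 lists compared. Their commonest widths were 82 and 88 bp, nearer those of Dox+ day 4 than of day 0. The part of list length and peak width in these calls was not tested.

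The lost regions were called again in part. Dox+ day 8 libraries called 31.8% and 50.0% of them, 40.9% ± 12.9 on average (SD, n = 2), which is 4.94 and 4.57 times the share of outside regions in the same libraries. Both Dox+ day 8 libraries called 4051 lost regions, 1 called 3636 and neither called 6649. These lists held 108663 and 130916 peaks, more than any of the 4 lists compared, and the part of list length in these calls was not tested.

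Lost regions that Dox+ day 8 cells called again were on average called more often elsewhere than those not called again. This held in every group apart from Dox+ and day 0 cells, which were used to sort them. Of the 4051 regions called by both Dox+ day 8 libraries, FRG day 8 libraries called 87.7% and 87.1%, against 66.0% and 64.4% of the 6649 that Dox+ day 8 cells did not call. Activated satellite cells called 21.6% and 29.4% of the regions called again and 3.76% and 5.55% of those not called again. In quiescent satellite cells the shares were 27.0% and 17.0%, against 10.3% and 5.62%. In MEF10 MN+FRG cells they were 80.3% and 80.3%, against 39.1% and 39.0%. Dox+FRG day 8 cells called few of either kind, 11.3% and 6.57% of those called again and 3.46% and 2.53% of those not called again.

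With the small molecules added, some gained regions were called by day 2 and more by day 4. Dox+FRG libraries called 19.1% and 11.6% of them at day 2, 49.9% and 34.8% at day 4, 52.8% and 53.1% at day 6, and 55.3% and 38.7% at day 8. The outside regions stood at 1.17% to 3.92% in these 8 libraries, and at day 2 the gained share was 5.23 and 7.34 times the outside share. Both Dox+FRG libraries first called 3240 of the gained regions at day 2, a further 7625 at day 4, 4835 at day 6 and 990 at day 8. A remaining 15768, or 48.6%, were called by both Dox+FRG libraries on no day. Of these, 9088 were in none of the 8 Dox+FRG lists, GFP lists not counted. The 8 Dox+FRG lists held 46017 to 70877 peaks, all fewer than the Dox+ day 4 lists, and the part of list length was not tested.

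The lost regions left the Dox+FRG lists over the same days. Dox+FRG libraries called 38.9% and 25.2% of them at day 2, 22.7% and 10.1% at day 4, 8.03% and 8.56% at day 6, and 6.56% and 4.14% at day 8. At day 8 that is 1.67 and 1.94 times the share of outside regions. Of the 14336 lost regions, 8278 were already absent from both lists at day 2, and 559 were in at least 1 list on every day. Regions called in all 4 libraries stayed at 72.4% to 90.5% in the same 8 lists.

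Cells given the small molecules without doxycycline called most lost regions, and called gained regions slightly less often than outside regions. FRG day 8 libraries called 24.2% ± 0.316 of the gained regions and 74.7% ± 0.799 of the lost regions (SD, n = 2), which is 75.3% and 74.2% of the lost regions by library. They had the longest lists of the series, with 134997 and 133267 peaks. Gained regions were called in them 0.880 and 0.882 times as often as the outside regions known from another group, which stood at 27.8% and 27.2%. In every other library outside the comparison that ratio was above 2. Lost regions were called 2.71 and 2.72 times as often as outside regions in FRG day 8 libraries. The same ratio was 4.94 and 4.57 in Dox+ day 8 libraries and 10.7 and 16.0 in Dox+FRG day 2 libraries. With outside shares of 27.8% and 27.2%, FRG libraries could not reach these values even if they called every lost region. These ratios therefore cannot rank FRG cells against the other groups.

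The log2 ratio of the gained share to the lost share was used to set libraries of different list length side by side. It averaged 1.55 ± 1.76 in the 8 Dox+FRG libraries not labelled GFP (SD, n = 8) and -1.63 ± 0.0034 in the FRG day 8 libraries (SD, n = 2). All 8 Dox+FRG libraries, from -1.12 to 3.23, lay above both FRG libraries, and the difference was 3.18. Of 45 splits this was the most extreme (exact permutation, two-sided: p = 0.0444, the smallest possible), with an adjusted p of 0.133 over the 3 such tests, which did not pass. When only extended peaks of Dox+ day 4 and day 0 defined the gained and lost regions, the difference was 0.917. Regions so defined may hold narrower peaks in the opposite group. Extended peaks in both libraries of a group, with no peak of any width in the other, gave 3.13, an alternative added after seeing the data. The day 2 libraries, at -1.03 and -1.12, lay closest to the FRG libraries. Treatment time differed between the sides, since FRG cells were taken at day 8 only. Basic FGF and serum replacement are listed for Dox+FRG cells and not for FRG cells, so doxycycline and medium cannot be told apart here. The 8 Dox+FRG libraries come from different days and were permuted as a single group, so they are not replicates of a single condition.

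In MEF10 cells the MyoD+FRG libraries had the higher ratio and the MN+FRG libraries the lower. The MyoD+FRG libraries called 20.9% and 59.4% of the gained regions and 6.98% and 36.6% of the lost regions. The MN+FRG libraries called 30.3% and 30.3% of the gained and 57.0% and 56.8% of the lost regions. Outside regions stood at 0.586% and 8.76% in MyoD+FRG and at 12.9% and 13.1% in MN+FRG libraries. The gained share was 35.6 and 6.79 times the outside share in MyoD+FRG, against 2.35 and 2.31 times in MN+FRG libraries. For the lost share it was 11.9 and 4.18 times, against 4.41 and 4.33 times. The log2 ratio was 1.58 and 0.70 in MyoD+FRG libraries, against -0.91 and -0.90 in MN+FRG libraries. The MyoD+FRG libraries differ strongly from each other, since replicate 2 is the list with wide peaks and replicate 1 has the fewest peaks of the series, 37301. Without replicate 2 the MyoD+FRG value is the 1.58 of replicate 1, and with 2 libraries against 2 the difference was not tested.

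**Figure D2:**
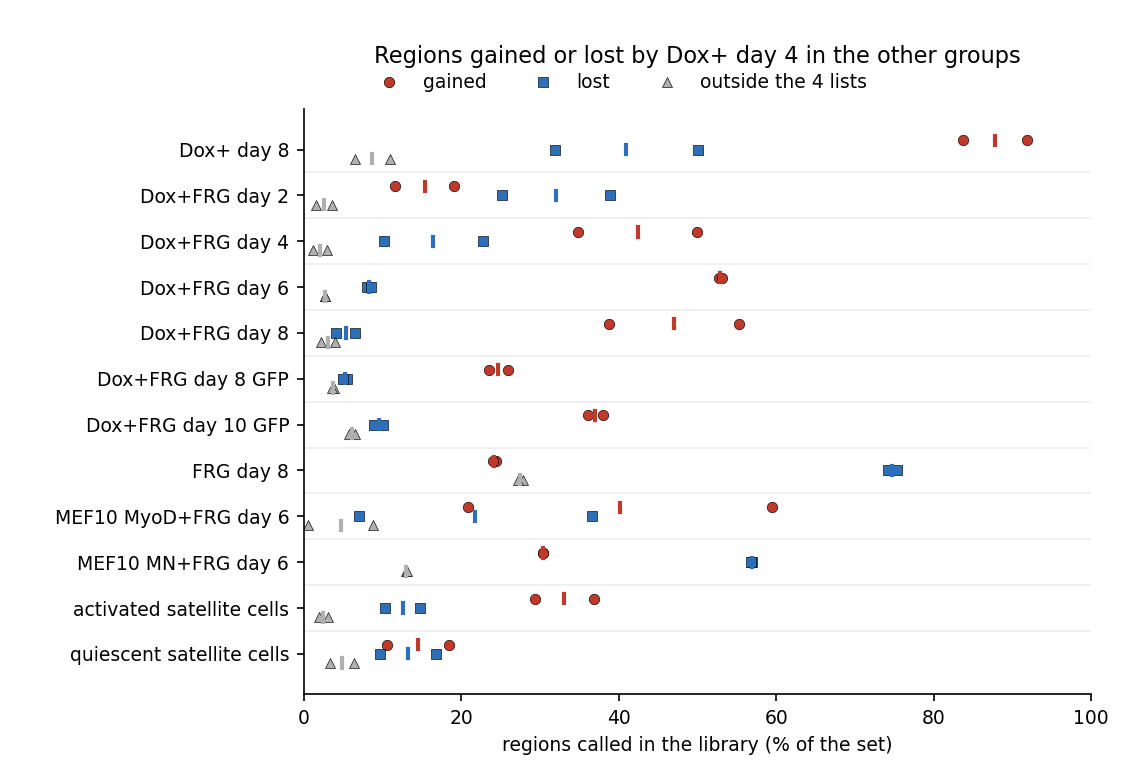
Share of the gained (red circles), lost (blue squares) and outside regions (grey triangles) called in each library of the other groups (horizontal axis, percent of the set). Symbols are the 2 libraries and ticks their mean. Gained regions reach 83.8% and 91.8% in Dox+ day 8 cells, while FRG day 8 cells hold 75.3% and 74.2% of the lost regions.

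Gained regions were called more in activated than in quiescent satellite cells. Activated libraries called 29.4% and 36.8% of them, against 18.5% and 10.5% in quiescent libraries. The ranges did not overlap. Lost regions were called at 10.3% and 14.8% in activated and 16.7% and 9.74% in quiescent libraries, where the ranges did overlap. The log2 ratio of gained to lost share was 1.41 ± 0.14 in activated and 0.13 ± 0.02 in quiescent libraries (SD, n = 2 each), a difference of 1.28. The exact permutation test, two-sided, cannot go below p = 0.333 here and gave that value (adjusted p = 0.5). When only extended peaks of Dox+ day 4 and day 0 defined the gained and lost regions, the difference was 0.199. When these regions also had no peak of any width in the opposite group and extended peaks in both libraries, it was 1.42. The lists held 49072 and 61400 peaks in activated and 57859 and 37910 in quiescent libraries.

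By satellite cell state, 8463 gained regions, or 26.1%, were called in activated libraries only and 1774, or 5.47%, in quiescent libraries only. A further 4300 were called in both states and 17921 in no satellite cell library. Among the lost regions 1452 were called in activated libraries only, 1513 in quiescent libraries only, and 10447, or 72.9%, in neither state. The regions called in all 4 libraries differed from both, with 63.9% called in both states. Regions outside the 4 lists were here all 125235 called in none of them, those of satellite cells alone included. Of these, 9.10% were called in quiescent libraries only and 5.65% in activated libraries only. In no satellite cell library were 55.2% of the gained regions, against 83.8% of the outside regions and 10.4% of those called in all 4 libraries, so the gained regions lay between these sets.

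Cells labelled GFP, in a line whose GFP reporter is Pax7-nGFP, called fewer of the gained regions than other Dox+FRG cells of day 8. Day 8 GFP libraries called 25.9% and 23.5%, against 55.3% and 38.7% in day 8 libraries without that label. Day 10 GFP libraries called 36.1% and 37.9%. Lost regions were at 5.43% and 4.94% in day 8 GFP libraries and 8.92% and 10.1% in day 10 GFP libraries. At day 8 the log2 ratio of gained to lost share was 2.25 and 2.25 in GFP libraries, against 3.07 and 3.23 in the others, so it was lower in GFP libraries at the matched day. Pooled over days it was 2.11 ± 0.17 in the 4 GFP libraries (SD, n = 4) and 1.55 ± 1.76 in the 8 others (SD, n = 8). The difference of 0.56 did not pass (exact permutation, two-sided: p = 0.646, adjusted p = 0.646). It was 0.187 and 0.174 without Dox+FRG day 2 replicate 1 and without replicate 2, and days 2 to 6 have no GFP libraries. When only extended peaks defined the gained and lost regions it was 0.248. When these regions also had no peak of any width in the opposite group and extended peaks in both libraries, it was 0.402. GFP lists of day 8 were short, 47002 and 43467 peaks, and held 67.7% and 64.3% of the regions called in all 4 libraries, and the part of list length was not tested.

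The gained regions were not alike in the rest of the series. Those called by both Dox+FRG day 4 libraries numbered 10255, those called by 1 numbered 7003 and those called by neither 15200. Activated satellite cells called 59.8% and 69.0% of the first kind and 10.2% and 15.2% of the last. Day 10 GFP cells called 65.2% and 67.3% of the first kind and 15.5% and 16.8% of the last. In quiescent satellite cells the shares were 31.3% and 20.2%, against 9.36% and 4.23%. Dox+ day 8 cells called 96.7% and 99.0% of the first kind and still 72.6% and 85.4% of the last. FRG day 8 cells called 30.9% and 30.5% of the first kind and 19.1% and 18.5% of the last. The regions shared by Dox+ and Dox+FRG day 4 cells were thus called more often than the others in each of these groups.

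**Figure D3:**
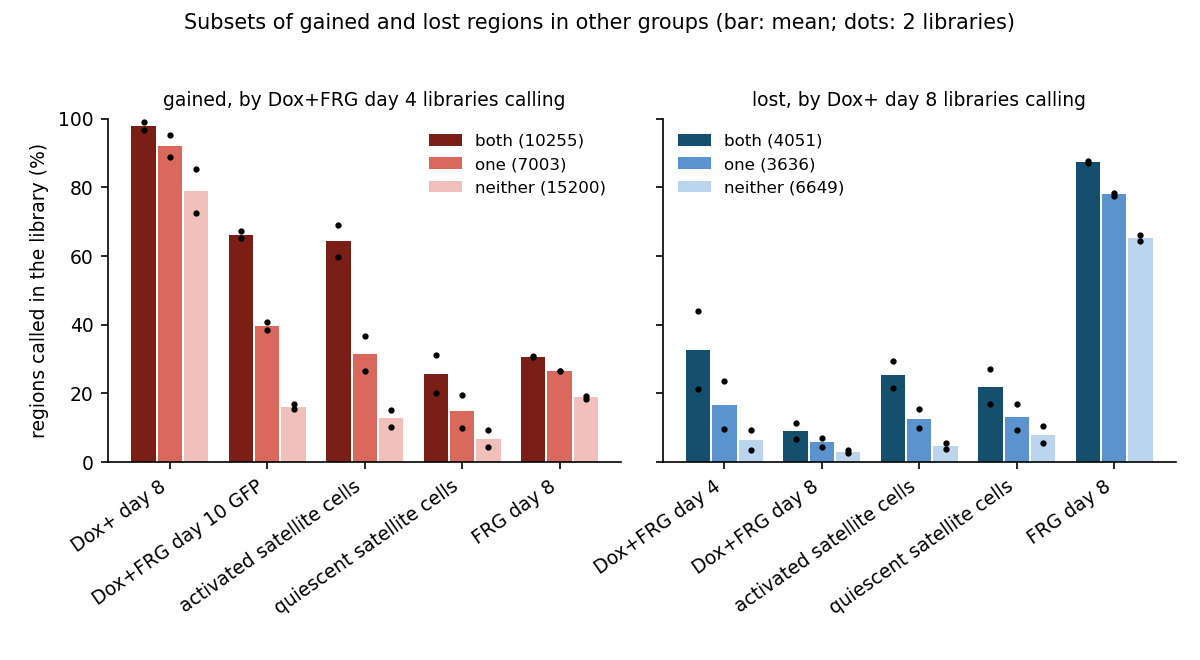
Left, gained regions split by how many Dox+FRG day 4 libraries called them. Right, lost regions split by how many Dox+ day 8 libraries called them. Bars are the mean share called (vertical axis, percent) and dots the 2 libraries of each group on the horizontal axis. Gained regions called by both Dox+FRG day 4 libraries stand at 59.8% and 69.0% in activated satellite cells, and those called by neither at 10.2% and 15.2%.

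Few gained regions were found nowhere else. Only 827, or 2.55%, were called in none of the 24 other libraries, and 1576 lost regions, or 11.0%, were in the same position. The median gained region was called in 8 of the 24 libraries and the median lost region in 5. No library outside the Dox+ groups called 4603 gained regions, or 14.2%, and both Dox+ day 8 libraries called 2606 of these. At the other end, 8528 gained and 1050 lost regions were called by both libraries of at least 6 of the 12 other groups. The other libraries include the longest lists of the series, those of FRG day 8 and Dox+ day 8. No matching shares were computed for all regions or for those called in all 4 libraries, so whether these counts are unusual was not tested.

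Peak width is the only measure of size in the lists. Extended peaks were found at 14.1% and 15.3% of the gained regions in the Dox+ day 4 libraries, and at 40.2% and 40.9% of the regions called in all 4 libraries. Among the lost regions they made up 5.55% and 4.27% in the day 0 libraries, against 18.0% and 14.6% of the regions called in all 4. Both kinds of changed region thus held fewer extended peaks than the regions that were called throughout.

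A core of 3094 gained regions had extended peaks in both Dox+ day 4 libraries. Dox+FRG day 4 cells called 79.0% and 65.0% of this core, against 44.8% and 29.5% of the 26025 gained regions with no extended peak. Activated satellite cells called 54.8% and 61.5% of the core and 25.0% and 32.6% of the others. FRG day 8 cells stood at 29.7% and 29.3% of the core and 23.3% and 22.8% of the others. The lost regions with extended peaks in both day 0 libraries numbered 394. FRG day 8 cells called 90.6% and 88.6% of these, and Dox+FRG day 8 cells 11.9% and 7.87%.

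The gained regions with the widest peaks were called in most other libraries. The widest, on chromosome 4 from 154536668 to 154539222 (mm9), had peaks of 2264 bp in both Dox+ day 4 libraries and none in day 0 libraries. Both activated and no quiescent satellite cell libraries called it, as did both libraries at Dox+ day 8 and FRG day 8, and neither MEF10 MN+FRG library. The next, on chromosome 12 from 13000567 to 13003369, had peaks of 2196 and 2280 bp and was called in 22 of the 24 other libraries, those of FRG day 8 being the exceptions. A region on chromosome 2 from 6830796 to 6833609, with peaks of 2216 and 2118 bp, was likewise absent from FRG day 8 libraries, and also from Dox+FRG day 2 and quiescent satellite cell libraries. The remaining 2 of the 5 widest lie on the same chromosome, from 59535965 to 59538539 and from 32479824 to 32482441, and were called in 23 and 20 other libraries. All 5 were called by both libraries of activated satellite cells and of Dox+ day 8 cells.

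The lost regions with the widest peaks were called in the FRG and MN+FRG fibroblasts. The widest, on chromosome 14 from 49692631 to 49694302, had peaks of 1626 and 1672 bp in day 0 libraries and none at Dox+ day 4. The others were on chromosome 8 from 122986037 to 122988670, chromosome 2 from 123946230 to 123948818, and chromosome 3 from 103711373 to 103712997 and from 131949557 to 131950927. Both FRG day 8 and both MEF10 MN+FRG libraries called all 5. None of the 5 was called in activated satellite cells or in Dox+FRG cells from day 4 on, GFP libraries included. At Dox+ day 8, 3 of them were called by both libraries and the other two by 1.

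Gained regions hold no day 0 peak by definition, so some distance from day 0 peaks is set by the rule, and no expected distance was computed. The median distance from a gained region to the nearest region called by both day 0 libraries was 11.0 kb, with quartiles of 4.54 and 25.3 kb, with 1.83% within 1 kb, 47.1% within 10 kb and 3.99% beyond 100 kb. For lost regions the median distance to the nearest region called by both Dox+ day 4 libraries was 9.33 kb, with 2.62% within 1 kb. To the nearest peak of either library the medians were 8.52 kb for gained and 7.02 kb for lost regions. Within 10 kb of a peak of either day 0 library lay 55.3% of the gained regions. With every peak set to 500 bp there were 35111 gained and 15180 lost regions. The nearest other gained region was at a median of 15.7 kb and the nearest other lost region at 40.1 kb, distances that also depend on how many regions each set holds.

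Some stretches of chromosome held several gained regions. In windows of 100 kb, with each region placed by its middle, 56.4% of gained regions lay in windows with at least 3 of them, and 23.5% of lost regions lay in windows with at least 3 lost ones. Windows with at least 4 gained and no lost region numbered 1166, and windows with at least 4 lost and no gained region numbered 67. Both kinds occurred together in 6850 of 20498 windows. These counts also depend on how many regions each set holds, 32458 gained and 14336 lost. No expected count was computed, so crowding beyond set size was not tested.

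The window with most gained regions lay on chromosome 10 from 44800001 to 44900000 (mm9). All 13 regions called by both libraries of either group there were gained. Libraries called 13 and 14 regions in this window at Dox+ day 4, against 0 and 0 at day 0, and 15 and 16 at Dox+ day 8. The Dox+FRG libraries called 4 and 3 at day 2, 10 and 10 at day 4, 12 and 11 at day 6 and 14 and 7 at day 8. FRG day 8 libraries called 3 and 4, activated satellite cells 5 and 8, and quiescent satellite cells 3 and 3. The windows named here were chosen for their gained or lost regions, so their Dox+ day 4 and day 0 counts largely follow from the rule. In this window day 8 GFP libraries called 4 and 5 regions and day 10 GFP libraries 10 and 8. MEF10 MyoD+FRG libraries called 7 and 15, and MN+FRG libraries 6 and 7. Among groups the rule did not use, Dox+FRG cells of day 2, day 8 GFP cells, FRG cells and quiescent cells called few regions here.

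A second such window, on chromosome 5 from 142300001 to 142400000, had 12 of 12 regions gained, with 12 and 14 called at Dox+ day 4 and 0 and 0 at day 0. It filled less with the small molecules, at 8 and 3 regions at Dox+FRG day 4. The third window, on chromosome 13 from 37700001 to 37800000, had 12 of 13 regions gained. Here 7 and 7 of the 12 gained regions were called in activated and 8 and 7 in quiescent satellite cells, so the states overlapped, and FRG day 8 cells called 3 and 3.

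Lost regions were most crowded on chromosome 8, in the window from 123400001 to 123500000, where 8 of 10 regions were lost and 1 was gained. Libraries called 2 and 2 regions there at Dox+ day 4, against 10 and 9 at day 0. The FRG day 8 libraries called 11 and 10, the Dox+ day 8 libraries 3 and 7, and the Dox+FRG day 8 libraries 1 and 0. On chromosome 1 from 72000001 to 72100000, 6 of 7 regions were lost, with 1 and 1 called at Dox+ day 4 and 8 and 7 at day 0. On chromosome 7 from 73700001 to 73800000, 7 of 9 were lost, with 2 and 2 called at Dox+ day 4 and 9 and 9 at day 0. The Dox+ day 8 libraries called 5 and 6 of these 7 lost regions again, more than in the other 2 windows.

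**Figure D4:**
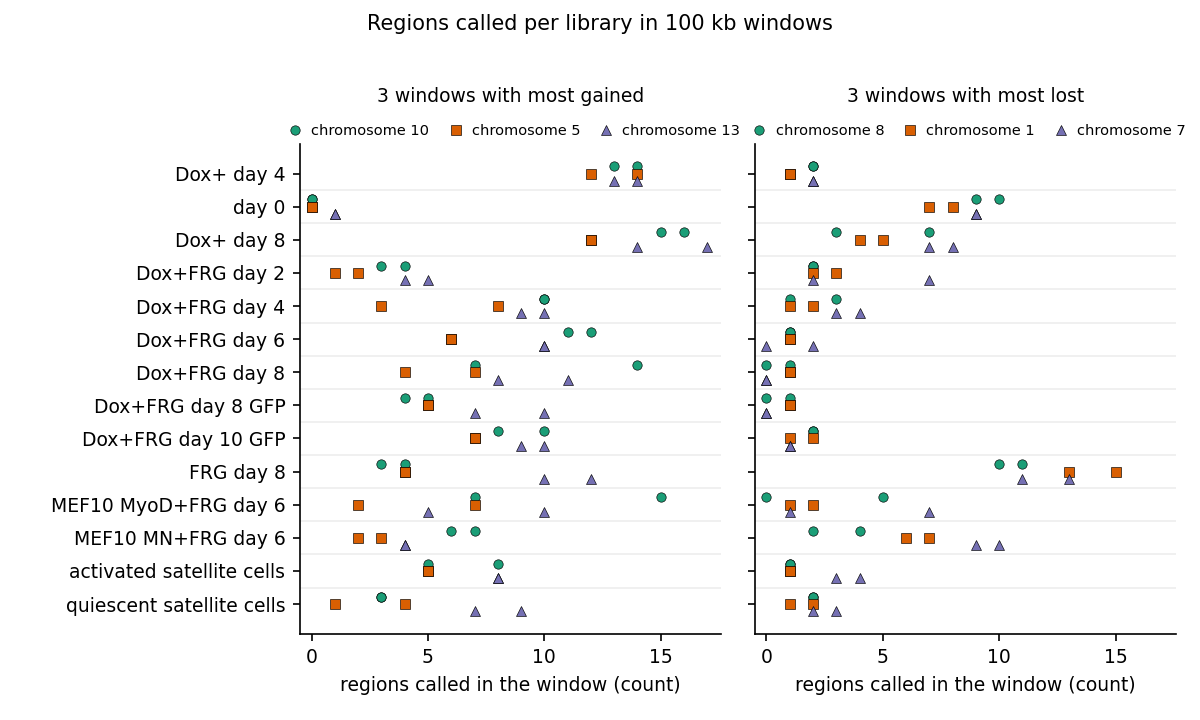
Regions called per library (horizontal axis, count) in the 3 windows of 100 kb with most gained regions (left) and the 3 with most lost regions (right). Each symbol is a library and each colour a window. In the chromosome 10 window Dox+ day 4 libraries stand at 13 and 14 and day 0 libraries at 0.

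The change ran over all chromosomes listed. Of the regions called by both libraries of either group, 34.0% were gained and 15.0% lost. Among autosomes the gained share ran from 27.5% on chromosome 19 to 36.9% on chromosome 14, and the lost share from 11.3% on chromosome 7 to 18.5% on chromosome 15. Chromosome X had 37.2% gained and 12.7% lost, with 801 and 274 regions.

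**Figure D5:**
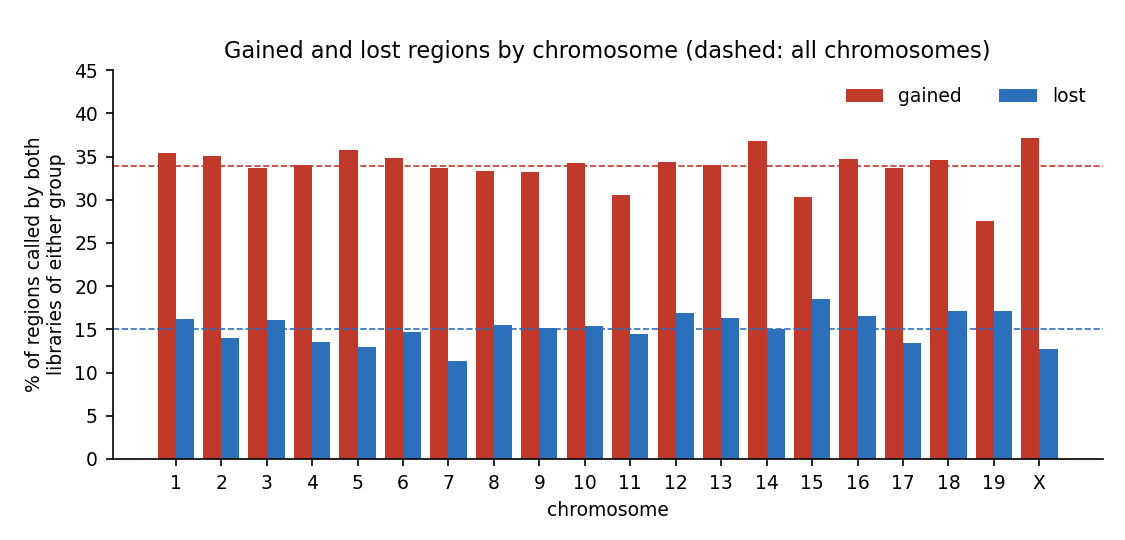
Gained (red) and lost (blue) regions per chromosome as percent of the regions called there by both libraries of either group. Dashed lines give the values over all chromosomes, 34.0% gained and 15.0% lost, and chromosome 19 stands lowest for gained regions at 27.5%.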

How the data were processed

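BWA, HOMER and the mm9 build are named per the submitters' processing notes. Their versions, the peak threshold, read filters and any transposase offset are not given in the sources at hand. The deposited files hold neither counts nor signal but other data: per library, the chromosome, start and end of each peak, with no score. Starts were taken as zero-based and positions are given one-based. Merging the peaks of all 28 libraries (overlap of 1 bp or more) gave 253225 regions, each called in every library with a peak inside it. Outside regions were called in none of the 4 libraries compared but in a library of another group than the one measured. The shares by satellite cell state instead count all 125235 regions called in none of the 4 libraries. The log2 ratio of gained to lost share was compared between groups by exact permutation (two-sided), adjusted over 3 comparisons after Benjamini and Hochberg, threshold 0.05, in Python with SciPy 1.17.1. Counting was tested on simulated lists.

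Windows named are the 3 of 100 kb with the largest excess of gained or of lost regions, and regions named are the 5 gained and 5 lost with the largest peak width, taking the smaller of both libraries relative to the commonest width. The comparison and these lists were chosen with earlier results of these data known. Gene, promoter and motif steps were planned and not run, for want of an mm9 annotation or genome in this work. Alternatives changed overlap, list length, peak width, threshold, gap, chromosomes, merging and libraries.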

Additional observations from a re-analysis of the deposited data

How the results depend on the processing

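Counts of gained and lost regions stayed within 1.5 times under a 50% overlap, autosomes alone, 500 bp peaks, other merging and a gap of 1 kb. They moved to 17129 gained with equal random draws (lost, 17632), and to 11168 gained and 1303 lost with extended peaks only. These last regions may hold a peak of the commonest width in the other group. Other alternatives were added after seeing the data. Extended peaks in both libraries, with no peak of any width in the other group, gave 3094 gained and 394 lost regions. Equal numbers of widest peaks gave 2272 gained and 2226 lost. Equal list sizes bring gained and lost counts together by construction. With 1 library left out, gained regions ranged from 35036 to 44763 and lost regions from 16266 to 20895. Shares at Dox+ day 8 were 83.8% to 91.8% of gained and 31.8% to 50.0% of lost regions with 1 library left out. No test passed under any alternative. The difference between Dox+FRG and FRG libraries was 2.94 to 3.56 with 1 library left out (adjusted p 0.167 to 0.5) and 0.917 to 3.18 otherwise (adjusted p 0.133 to 0.240), between activated and quiescent satellite cells 1.19 to 1.38 and 0.199 to 1.42, and between GFP and other Dox+FRG libraries 0.174 to 0.795 and 0.248 to 0.555. That last difference turned to -0.346 percentage points when shares were subtracted, and the cause was not tested. With the replicate number as a block the differences were 3.18, 0.555 and 1.28 as before, with exact permutation p = 0.08, 0.658 and 0.5. Nothing in the labels says that the numbers pair the libraries, and the differences between replicates 1 and 2 correlated at 0.00515 between Dox+ day 4 and day 0 over 127990 regions. Without scores or reads, a region absent from a list cannot be told apart from one below its threshold.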
